A study of Homo sapiens with 6 samples.

Results

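Epithelial lineage transcription factors were followed in AALE cells with and without forced expression of NRG1, which encodes neuregulin, a secreted factor that binds receptors of the ERBB family. The set was chosen by gene symbol with earlier results of these data known, so counts over it are descriptions only. It holds 10 genes of 57736 in the deposited count table: ELF3, EHF, ELF5, SPDEF, GRHL1, GRHL2, GRHL3, OVOL1, OVOL2 and KLF5. Each of the 10 symbols matched 1 row, and 8 of the 10 had enough counts to be tested. AALE cells derive from human airway epithelium, of basal type, made immortal by SV40 genes plus hTERT, and both groups share that background and the same airway growth medium. The NRG1 group (3 libraries, NRG1 1 to NRG1 3) carried a lentiviral vector overexpressing NRG1, and the control group (3 libraries, control 1 to control 3) carried a lentiviral control vector. RNA came from stable selected pools of transduced cells, and the labels give neither a time after transduction nor whether each library is a culture of its own. The p-values below therefore measure library-to-library spread only, possibly technical.

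These factors bind DNA through different folds but are known for one theme, the identity of epithelial cells. ELF3, EHF, ELF5 and SPDEF are ETS factors restricted largely to epithelia, whose ETS domain recognises a GGAA core. The grainyhead-like factors GRHL1, GRHL2 and GRHL3 bind a palindrome close to AACCGGTT and act on genes of cell junctions and barrier formation, among them CDH1 and claudin genes for GRHL2. OVOL1 and OVOL2 are zinc finger repressors known to hold down ZEB1 and other mesenchymal genes, and KLF5 is a Kruppel-like zinc finger factor of proliferating epithelial cells that binds GC-rich and CACCC boxes. In the airway, SPDEF is known for mucous cells, and ELF3 and EHF for differentiating surface epithelium.

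The windows around the annotated gene starts are shown for the pair of factors with the largest positive fold changes, ELF3 and EHF, and for ELF5, the coding gene next to EHF on chromosome 11, which had no counts. The RefSeq promoter table (build GRCh38.p14; the count table was made on another build) held windows of 300 bases, 250 before to 50 after the start, for 7 of the 10 genes, all but GRHL2, OVOL1 and OVOL2. Capitals mark the ETS core, GGAA on the printed strand or TTCC on the other. The ELF3 window is chr1:202010337-202010636 (plus strand).
ELF3: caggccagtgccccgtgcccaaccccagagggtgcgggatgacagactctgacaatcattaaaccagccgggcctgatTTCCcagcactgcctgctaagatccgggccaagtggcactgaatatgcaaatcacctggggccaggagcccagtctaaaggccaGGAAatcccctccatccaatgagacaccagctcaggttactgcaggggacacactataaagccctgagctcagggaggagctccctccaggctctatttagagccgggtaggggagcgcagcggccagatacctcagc
EHF has 2 annotated starts, with windows chr11:34624007-34624306 and chr11:34632316-34632615 (plus strand).
EHF first start: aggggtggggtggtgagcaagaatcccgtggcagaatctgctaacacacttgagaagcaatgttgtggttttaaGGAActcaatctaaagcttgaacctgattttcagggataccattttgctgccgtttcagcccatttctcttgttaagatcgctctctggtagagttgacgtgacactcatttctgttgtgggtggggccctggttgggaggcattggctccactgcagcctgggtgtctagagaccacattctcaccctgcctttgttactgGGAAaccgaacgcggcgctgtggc
EHF second start: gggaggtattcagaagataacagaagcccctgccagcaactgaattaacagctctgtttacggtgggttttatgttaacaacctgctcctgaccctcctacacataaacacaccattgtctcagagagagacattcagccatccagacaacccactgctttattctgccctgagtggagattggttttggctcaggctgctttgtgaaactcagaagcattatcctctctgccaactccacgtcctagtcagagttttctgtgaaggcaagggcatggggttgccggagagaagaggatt
The ELF5 window is chr11:34511675-34511974 (minus strand).
ELF5: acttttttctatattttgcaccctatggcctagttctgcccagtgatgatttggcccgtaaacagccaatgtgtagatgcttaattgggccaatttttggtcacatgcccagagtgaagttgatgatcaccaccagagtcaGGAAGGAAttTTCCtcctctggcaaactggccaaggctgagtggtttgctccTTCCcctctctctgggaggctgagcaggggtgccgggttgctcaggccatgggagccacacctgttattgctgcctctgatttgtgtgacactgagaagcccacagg
The ETS core occurred 2 times in the ELF3 window, 2 times at the first EHF start, 0 times at the second and 4 times in the ELF5 window. It is a short string, and 95.5% of the 35116 windows in the table held it on either strand. The grainyhead palindrome AACCGGTT was in 0 of the 10 windows of these genes and in 0.134% of all windows. The box CACCC, or GGGTG on the other strand, occurred 1 time in the ELF3 window, 5 times at the first EHF start, 0 times at the second and 2 times in the ELF5 window, and 59.9% of all windows held it. These matches describe letters only, and the data hold no measurement of binding.

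The libraries held between 8612234 and 13207620 expected counts. NRG1 was at 6647, 3854 and 3781 CPM (counts scaled to a common library total, with TMM factors) in NRG1 1 to NRG1 3. The controls were at 7.87 to 12.3 CPM, so the labels matched the targeted gene. On the first principal component of log2 CPM (44.5% of the variance) control 3 lay at 79.3, with NRG1 2 and NRG1 3 at -41.3 and -40.5 and the other libraries between -0.884 and 4.16. On the second (27.3%) NRG1 1 lay at -65.4, against -7.46 to 23.2 for the other libraries. The fold changes of the tested factors and the counts of calls in related lists are therefore also given without control 3 and NRG1 1, as a comparison of 2 against 2 libraries; leaving out libraries for their distance lowers the spread, so its p-values are too small by an unknown amount. All 8 airway basal markers, among them KRT5 and TP63, were detected in every library, with a summed level of 5776 to 7077 CPM in NRG1 and 8655 to 12501 CPM in control libraries. KRT5 and KRT17 made up most of that sum, and the markers differed among themselves. The log2 fold change was -3.05 for NGFR, -2.45 for KRT14, -0.995 for KRT17, 0.087 for TP63 and 2.30 for KRT15. In that order, the edgeR adjusted p was 0.335, 0.268, 0.166, 0.874 and 0.328. The DESeq2 adjusted p was 0.138, 0.000788, 2.05e-06, 0.919 and 0.00773. For NGFR, KRT14 and KRT17 every NRG1 library lay below every control. Without control 3 and NRG1 1 the fall was smaller for NGFR (-1.14, SE 0.39) and larger for KRT14 (-3.40, SE 0.35). Of 8 secretory markers, 6, 7 and 1 were at 0 counts in NRG1 1 to NRG1 3, and their sum was 0.247, 0.374 and 62.7 CPM; in control 1 to control 3, 5, 5 and 1 were at 0, and the sum was 0.242, 0.404 and 31.0 CPM. Fibroblast markers summed to 22.1 to 28.9 CPM in NRG1 and 44.7 to 70.7 CPM in control libraries, and endothelial markers to 0.618 to 2.61 and 0.725 to 0.926 CPM. The leukocyte sums, 9.77 to 27.9 CPM in NRG1 and 22.1 to 34.2 CPM in control libraries, came mostly from CD68, while PTPRC was at 0 in the NRG1 libraries and at most 0.154 CPM in the controls. Of 7 ciliated markers in the table TUBB4B, a widely expressed tubulin, made up most of the sum of 307 to 533 CPM in NRG1 and 427 to 573 CPM in control libraries, and FOXJ1 was at most 1.41 CPM.

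With edgeR (quasi-likelihood F test, p adjusted by Benjamini-Hochberg over 15421 genes) 0 of the 8 tested factors passed the threshold of 0.05, against 0.00648% of all genes, which is NRG1 alone. At an unadjusted p under 0.05 there were 2 factors, ELF3 and EHF, both higher with NRG1, against 11.8% of all genes at that level in either direction and 5.08% as higher. Both, and no other factor, had a log2 fold change of at least 1, against 2.89% of all genes. In 2 factors, EHF and OVOL2, all 3 NRG1 libraries lay above all 3 controls, against 9.36% of all genes, and in 0 factors did all lie below; 19.6% of all genes separated in either direction. DESeq2 on the same counts called 2 factors, ELF3 and EHF, against 1.36% of all genes. On simulated data, at the same threshold, 24 of 158 DESeq2 calls were false, against 6 of 110 for edgeR. DESeq2 calls here and below are therefore the less certain. The fitted log2 fold change (NRG1 over control) was above 0 in 6 of the 8 factors, against 50% of all genes, with a median of 0.28 against 0.00034 over all genes tested. The 8 factors entered the test on their counts in both groups, since each had at least 27.9 expected counts in every library.

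**Figure D1:**
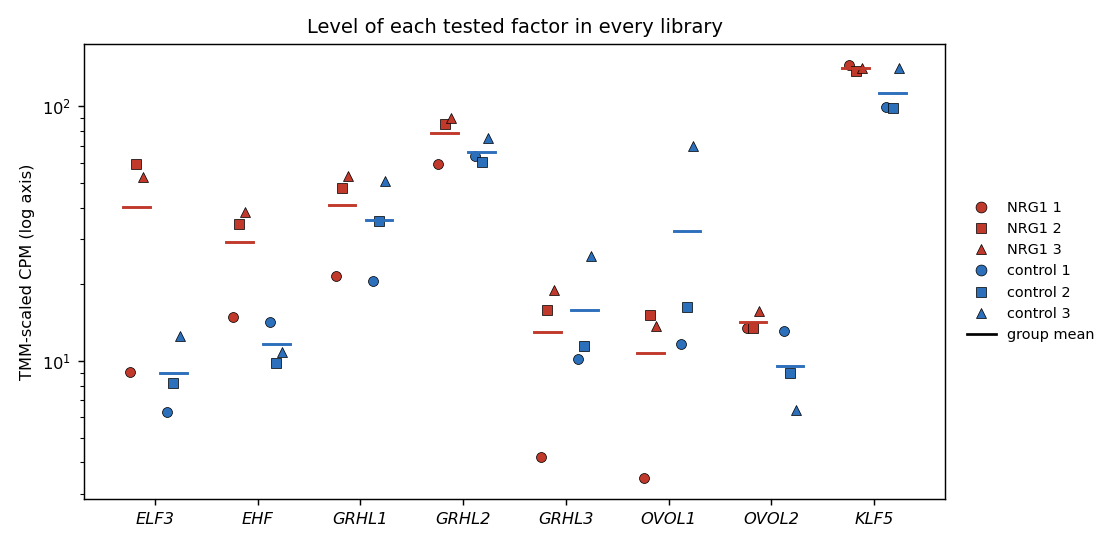
TMM-scaled CPM on a log axis of the 8 tested factors in each library (symbols), with NRG1 libraries to the left of control libraries and a bar at each group mean. ELF3 stands at 59.4 and 52.8 CPM in NRG1 2 and NRG1 3 but within the spread of the controls in NRG1 1 (9.02 CPM), and OVOL1 stands at 69.6 CPM in control 3.

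ELF3 (ENSG00000163435, chromosome 1), an ETS activator of surface epithelium, had the largest positive fold change of the set. Its level was 9.02, 59.4 and 52.8 CPM in NRG1 1 to NRG1 3, against 6.29, 8.17 and 12.5 CPM in control 1 to control 3. NRG1 2 and NRG1 3 stood several-fold above every other library, and NRG1 1 lay within the control range, so the groups overlapped. The means were 40.4 ± 27.4 CPM in NRG1 and 8.99 ± 3.19 CPM in control (SD, n = 3 each). The fitted log2 fold change was 2.17 (SE 0.62; 95% interval 0.76 to 3.58). The adjusted p was 0.332 in edgeR and 0.0194 in DESeq2. Without NRG1 1 the log2 fold change was 2.64 with an edgeR adjusted p of 0.0453, and in the 2 against 2 comparison it was 2.96 (SE 0.17) with an edgeR adjusted p of 0.000885. The secretory marker sum was 0.247, 0.374 and 62.7 CPM in NRG1 1 to NRG1 3, against 0.242, 0.404 and 31.0 CPM in control 1 to control 3, so of the pair of libraries with high ELF3 it was high in NRG1 3 and near 0 in NRG1 2. Its part in the ELF3 result was not tested. NRG1 itself was highest in NRG1 1, at 6647 CPM, against 3854 and 3781 CPM in NRG1 2 and NRG1 3. Among the NRG1 libraries, the one with the most NRG1 thus had the least ELF3, and the reason was not tested. In bulk RNA, more cells with a transcript and more of it per cell cannot be told apart, for ELF3 as for the genes that follow. The antisense gene ELF3-AS1 held 4.86, 13.5 and 8.62 expected counts in NRG1 1 to NRG1 3 and 3.57, 3 and 4.58 in control 1 to control 3, against 73.1 to 636 for ELF3 itself; the sources state no use of strand in counting, so reads of the overlap cannot be assigned to either gene.

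EHF (ENSG00000135373, chromosome 11), a close ETS relative of ELF3, differed in the same direction and was the member with the smallest p. Its level was 14.8, 34.5 and 38.3 CPM in NRG1 1 to NRG1 3, against 14.2, 9.79 and 10.9 CPM in control 1 to control 3. All NRG1 libraries lay above all controls, but NRG1 1 exceeded control 1 by less than 1 CPM. The means were 29.2 ± 12.6 CPM in NRG1 and 11.6 ± 2.29 CPM in control (SD, n = 3 each), and the fitted log2 fold change 1.33 (SE 0.36; 95% interval 0.50 to 2.17). The adjusted p was 0.330 in edgeR and 0.0458 in DESeq2, and the gene ranked 285 of 15421 by unadjusted p. A two-sided exact permutation test of its log2 CPM gave p = 0.1, the lowest value possible with 3 libraries a group, and 0.2 for ELF3. In the 2 against 2 comparison the log2 fold change of EHF was 1.59 (SE 0.20), with an edgeR adjusted p of 0.00582.

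The other ETS members were near or at 0. ELF5 (ENSG00000135374, chromosome 11), known from mammary and other glandular epithelium, had 0 counts in every library, which allows at most 0.232 to 0.371 CPM per library at a floor of 3 counts, covering counting error only. Its neighbour EHF was expressed in every library. SPDEF (ENSG00000124664, chromosome 6) had 0, 0 and 1 expected counts in NRG1 1 to NRG1 3, against 1, 0 and 3 in control 1 to control 3, so no difference was detectable at this depth. Neither was tested.

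Among the grainyhead-like genes, GRHL2 (ENSG00000083307, chromosome 8) was the most abundant and varied least. Its level was 59.1, 85.6 and 90.3 CPM in NRG1 1 to NRG1 3, against 64.0, 60.2 and 74.8 CPM in control 1 to control 3, so NRG1 1 was the lowest library and NRG1 2 and NRG1 3 the highest. The log2 fold change was 0.24 (SE 0.20; 95% interval -0.22 to 0.70; edgeR adjusted p = 0.639), and 0.50 (SE 0.11; edgeR adjusted p = 0.0290) in the 2 against 2 comparison. Leaving out 1 library gave 0.13 (without NRG1 3) to 0.41 (without NRG1 1). GRHL1 (ENSG00000134317, chromosome 2), which acts on desmosomal genes, was at 21.6, 47.8 and 53.1 CPM in NRG1 1 to NRG1 3, against 20.6, 35.5 and 50.9 CPM in control 1 to control 3. Both groups spanned the same range, with a log2 fold change of 0.20 (SE 0.40; edgeR adjusted p = 0.858) over the 6 libraries. It was -0.032 without NRG1 3 and -0.076 without control 1, but 0.50 without NRG1 1, 0.54 without control 3 and 0.85 (SE 0.23; edgeR adjusted p = 0.0618) in the 2 against 2 comparison.

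GRHL3 (ENSG00000158055, chromosome 1), a grainyhead factor of epidermal barrier formation, was spread more widely. It was at 4.203, 15.9 and 19.0 CPM in NRG1 1 to NRG1 3, against 10.2, 11.4 and 25.8 CPM in control 1 to control 3. The lowest level was in NRG1 1 and the highest in control 3, the libraries that stood apart from their groups. The log2 fold change was -0.27 (SE 0.54; edgeR adjusted p = 0.857) over the 6 libraries. It was 0.28 without control 3, 0.13 without NRG1 1, and 0.69 (SE 0.19; edgeR adjusted p = 0.0567) in the 2 against 2 comparison, so no direction can be given.

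OVOL1 (ENSG00000172818, chromosome 11), a zinc finger repressor of differentiating epidermis, had the same highest and lowest libraries as GRHL3. Its level was 3.46, 15.1 and 13.68 CPM in NRG1 1 to NRG1 3, against 11.7, 16.2 and 69.6 CPM in control 1 to control 3. Control 3 alone stood far above the rest, and NRG1 2 and NRG1 3 lay between control 1 and control 2. The log2 fold change was -1.58 (SE 0.74; 95% interval -3.27 to 0.10; edgeR adjusted p = 0.442), -0.36 without control 3 and 0.054 (SE 0.21; edgeR adjusted p = 0.895) in the 2 against 2 comparison. The overlapping gene OVOL1-AS1 had at most 2 expected counts in any library.

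OVOL2 (ENSG00000125850, chromosome 20), the repressor known to oppose mesenchymal transition, differed from OVOL1 across the libraries. It was at 13.5, 13.5 and 15.7 CPM in NRG1 1 to NRG1 3, against 13.1, 8.98 and 6.41 CPM in control 1 to control 3. The 3 NRG1 libraries lay close together and above every control, with control 1 just beneath them and control 3 the lowest. The means were 14.2 ± 1.31 CPM in NRG1 and 9.51 ± 3.40 CPM in control (SD, n = 3 each), and the log2 fold change was 0.58 (SE 0.31; 95% interval -0.13 to 1.29; edgeR adjusted p = 0.475). It was 0.89 without control 1, 0.35 without control 3 and 0.39 (SE 0.23; edgeR adjusted p = 0.317) in the 2 against 2 comparison. The two-sided exact permutation p was 0.1.

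KLF5 (ENSG00000102554, chromosome 13) had the highest CPM of the set. It was at 146, 137 and 142 CPM in NRG1 1 to NRG1 3, against 99.0, 98.1 and 142 CPM in control 1 to control 3. The NRG1 libraries agreed closely, control 1 and control 2 were lower, and control 3 was level with NRG1. The log2 fold change was 0.33 (SE 0.18; 95% interval -0.090 to 0.74; edgeR adjusted p = 0.491), and 0.50 (SE 0.10; edgeR adjusted p = 0.0232) in the 2 against 2 comparison.

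**Figure D2:**
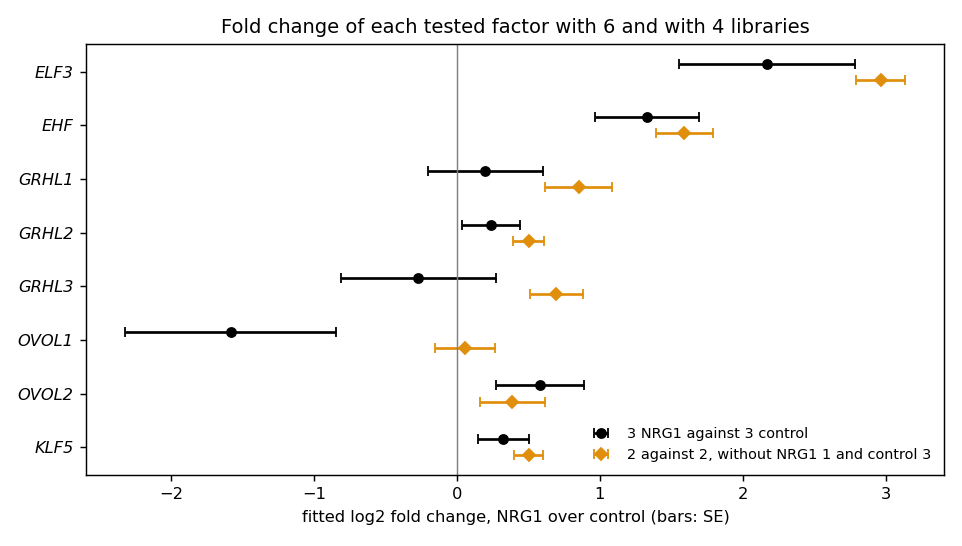
Fitted log2 fold change (NRG1 over control) of each tested factor with its SE as a bar, from all 6 libraries (circles) and from the 2 against 2 comparison without NRG1 1 and control 3 (diamonds). ELF3 and EHF lie above 1 in both, whereas GRHL3 moves from -0.27 to 0.69 and OVOL1 from -1.58 to 0.054.

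In the 2 against 2 comparison edgeR called 4 of the 8 factors, ELF3, EHF, GRHL2 and KLF5, all higher, against 9.82% of all genes called there in either direction and 5.04% called higher. In 7 of the 8, all but OVOL1, NRG1 2 and NRG1 3 both lay above control 1 and control 2, against 29.4% of all genes. These libraries were kept for their distances and the factors chosen with earlier results known, so both counts are descriptions only. With all 6 libraries the median deviation of the 8 factors from their control mean on the log2 scale was -0.049 in NRG1 1, 0.44 in NRG1 2 and 0.56 in NRG1 3. It was -0.31, -0.16 and 0.44 in control 1 to control 3, so control 3 was level with NRG1 2. The same median over all genes tested stayed between -0.012 and 0.0086 in every library.

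**Figure D3:**
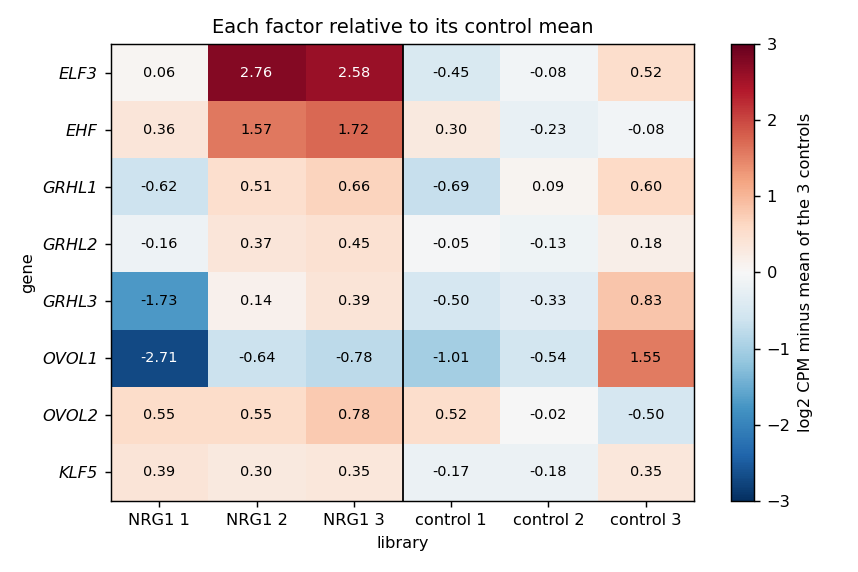
Heat map of log2 CPM (prior count 2) minus the mean of the 3 controls for the 8 tested factors (rows) in the 6 libraries (columns, NRG1 left of the line). ELF3 reaches 2.76 and 2.58 in NRG1 2 and NRG1 3 and 0.062 in NRG1 1, and OVOL1 runs from -2.71 in NRG1 1 to 1.55 in control 3.

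Divided by exon length, the order of the levels was led by KLF5 and GRHL2 in both groups. KLF5 was at 36.4 ± 1.10 CPM per kilobase in NRG1 and 29.01 ± 6.41 in control, and GRHL2 at 12.9 ± 2.78 in NRG1 and 10.9 ± 1.25 CPM per kilobase in control (SD, n = 3 each). In NRG1 libraries EHF, OVOL2, ELF3, GRHL1, GRHL3 and OVOL1 followed in that order, at 6.66, 6.54, 5.62, 5.14, 3.31 and 2.80 CPM per kilobase, and the ranges of neighbours among these 6 overlapped. In control libraries the order after GRHL2 was OVOL1, GRHL1, OVOL2, GRHL3, EHF and ELF3, at 8.45, 4.49, 4.37, 4.01, 2.65 and 1.25 CPM per kilobase. There the ranges of EHF and ELF3 did not overlap, while those of each pair of neighbours from GRHL2 to EHF did. ELF3 thus stood last of the expressed members in the control group by this measure. In CPM not divided by length, its control range of 6.29 to 12.5 overlapped those of EHF (9.79 to 14.2) and OVOL2 (6.41 to 13.1). Lengths are merged exons of GENCODE 29, a later annotation than the hg19 build, so the levels per kilobase and their order are approximate.

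Across the 6 libraries ELF3 varied most alike with GRHL2 (Pearson's r = 0.92 for log2 CPM) and EHF (r = 0.91), and GRHL3 with OVOL1 (r = 0.90), while OVOL1 and OVOL2 ran opposite (r = -0.75). These are descriptions over 6 libraries that share the grouping and the 2 libraries that stand apart. Of 11832 other genes with a symbol and a mean of at least 5 CPM, the 5 most like ELF3 were TBC1D8 and MUC16 (r = 0.99 each), PTPRU, SNX17 and C11orf80 (r = 0.99 each). MUC16, a membrane mucin, was at 0.371, 30.5 and 39.4 CPM in NRG1 1 to NRG1 3, against 0.0806, 0.706 and 1.16 CPM in control 1 to control 3. PTPRU, a receptor tyrosine phosphatase, was at 64.4, 103 and 101 CPM in NRG1 1 to NRG1 3, against 56.8, 67.1 and 68.5 CPM in control 1 to control 3. In each of the 5, NRG1 2 and NRG1 3 were the highest libraries, which follows from choosing them for likeness to ELF3. The 5 most like EHF were CSNK2A3, ANXA4, MYO6, HADHB and DOP1A (r = 0.99 each). ANXA4, a calcium-dependent phospholipid-binding protein of epithelia, was at 76.6, 127 and 125 CPM in NRG1 1 to NRG1 3, against 73.2, 66.7 and 70.2 CPM in control 1 to control 3. CSNK2A3 is a close copy of CSNK2A1, so its counts are uncertain. None of these 10 genes passed edgeR over all genes (adjusted p 0.307 to 0.594).

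The remaining ETS factors went the other way on balance: of 17 tested, 14 had a log2 fold change below 0, with a median of -0.31, against 0.00034 over all genes. In edgeR 0 passed over all genes and 1, ELK1, had an unadjusted p under 0.05 as lower, against 6.72% of all genes. ETS2 separated as higher and ELF4 as lower, 1 each of 17, against 9.36% and 10.2% of all genes. In the 2 against 2 comparison edgeR called 1 higher, ETV7, and 4 lower, ETS1, ETV1, ETV4 and ETV5, against 5.04% and 4.79% of all genes. ETS2, a widely expressed ETS factor, was at 257, 254 and 256 CPM in NRG1 1 to NRG1 3, against 232, 197 and 149 CPM in control 1 to control 3. ETV5, an ETS gene induced by ERK signalling, was at 62.2, 10.6 and 12.0 CPM in NRG1 1 to NRG1 3, against 56.1, 57.8 and 91.3 CPM in control 1 to control 3. It was thus low in the pair of libraries where ELF3 and EHF were high, and NRG1 1 lay in the control range for ETV5 and ELF3. ELF2, a ubiquitous relative, had a log2 fold change of -0.46 (SE 0.23; edgeR adjusted p = 0.453).

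Among the relatives of the other families, 16 genes were tested, 8 above 0 and 8 below, with a median log2 fold change of -0.013. TFCP2L1, a member of the grainyhead superfamily, was at 234, 404 and 387 CPM in NRG1 1 to NRG1 3, against 166, 117 and 88.8 CPM in control 1 to control 3. Its groups did not overlap, NRG1 1 included, and the log2 fold change was 1.46 (SE 0.28; edgeR adjusted p = 0.211; DESeq2 adjusted p = 0.000917). KLF9, a Kruppel-like factor induced by steroid hormones, was at 148, 123 and 122 CPM in NRG1 1 to NRG1 3, against 69.6, 82.9 and 63.3 CPM in control 1 to control 3, a log2 fold change of 0.86 (SE 0.17; edgeR adjusted p = 0.213; DESeq2 adjusted p = 0.00405). KLF12 and UBP1 also separated as higher and KLF4 and KLF7 as lower, 4 and 2 of 16, against 9.36% and 10.2% of all genes. KLF4, a factor of squamous differentiation, stood at a log2 fold change of -0.43 (SE 0.16) and KLF7 one of -0.73 (SE 0.31). In edgeR 0 of the 16 passed over all genes, and DESeq2 called TFCP2L1 and KLF9, 2 of 16 against 1.36% of all genes. The 2 against 2 comparison called TFCP2L1, KLF9 and KLF10 higher and KLF4 lower. These are 3 and 1 of 16, against 5.04% and 4.79% of all genes.

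Other lineage factors of epithelia went both ways: of 15 tested, 6 had a log2 fold change above 0 and 9 below, and the median was -0.18. XBP1, a factor of secretory protein load, was at 231, 157 and 160 CPM in NRG1 1 to NRG1 3, against 211, 270 and 386 CPM in control 1 to control 3, a log2 fold change of -0.66 (SE 0.25; edgeR adjusted p = 0.390). SOX9, a factor of airway progenitors and ducts, was at 9.39, 11.7 and 12.9 CPM in NRG1 1 to NRG1 3, against 23.6, 9.69 and 68.6 CPM in control 1 to control 3, so its highest library was control 3, as for OVOL1. CREB3L1 and TFAP2C separated as lower, 2 of 15 against 10.2% of all genes, and 0 separated as higher. At an unadjusted p under 0.05 CREB3L1, XBP1 and SOX9 were lower, 3 of 15 against 6.72% of all genes, and 0 passed edgeR or DESeq2 over all genes. Of the genes named here, the 2 against 2 comparison called XBP1 lower, 1 of 15 against 4.79% of all genes.

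Of 29 tested epithelial effector genes, reported as targets of these factors in other systems, 23 had a log2 fold change above 0, with a median of 0.21. In edgeR 0 passed over all genes, and at an unadjusted p under 0.05 there were 8 higher and 2 lower, against 5.08% and 6.72% of all genes. DESeq2 called 4, against 1.36% of all genes: MUC1, KRT19 and LCN2 as higher and DSG1, a desmosomal cadherin gene, as lower. MUC1, a membrane mucin gene, was at 42.4, 116 and 103 CPM in NRG1 1 to NRG1 3, against 15.1, 16.0 and 10.3 CPM in control 1 to control 3, a log2 fold change of 2.66 (edgeR adjusted p = 0.119). CDH1 and EPCAM, named after their values were seen, also separated as higher with those 3, and DSG1 and SPRR1A as lower, 5 and 2 of 29 against 9.36% and 10.2% of all genes. CDH1, which encodes E-cadherin, was at 432, 575 and 557 CPM in NRG1 1 to NRG1 3, against 381, 353 and 361 CPM in control 1 to control 3, a log2 fold change of 0.51 (edgeR adjusted p = 0.343). DSG1 was at 0, 0.0934 and 0.217 CPM in NRG1 1 to NRG1 3, against 1.05, 3.23 and 1.85 CPM in control 1 to control 3. In the 2 against 2 comparison 9 of the 29 were called higher and 2 lower, against 5.04% and 4.79% of all genes.

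Of the 9 tested mesenchymal factors and genes that these regulators are known to oppose, 7 had a log2 fold change below 0, with a median of -1.33. ZEB1, the target of OVOL and GRHL2 repression described in other cells, was at 7.42, 2.43 and 3.69 CPM in NRG1 1 to NRG1 3, against 7.98, 8.68 and 18.1 CPM in control 1 to control 3. ZEB2, its paralog, was at 2.10, 1.40 and 1.303 CPM in NRG1 1 to NRG1 3, against 3.71, 3.94 and 4.63 CPM in control 1 to control 3. ZEB1, ZEB2 and FN1 separated as lower, 3 of 9 against 10.2% of all genes, and 0 separated as higher. CDH2, the N-cadherin gene, was at 9.15, 1.96 and 2.17 CPM in NRG1 1 to NRG1 3, against 11.5, 8.07 and 12.5 CPM in control 1 to control 3. Here too NRG1 1 lay nearest the controls. In edgeR 0 of the 9 passed over all genes (adjusted p 0.170 for FN1, 0.318 for ZEB2, 0.368 for ZEB1 and 0.412 for CDH2), 4 were lower before adjustment (p under 0.05), against 6.72% of all genes. DESeq2 called 1, FN1, against 1.36% of all genes. In the 2 against 2 comparison 5 of the 9, ZEB1, ZEB2, VIM, CDH2 and FN1, were called lower and 0 higher, against 4.79% and 5.04% of all genes.

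**Figure D4:**
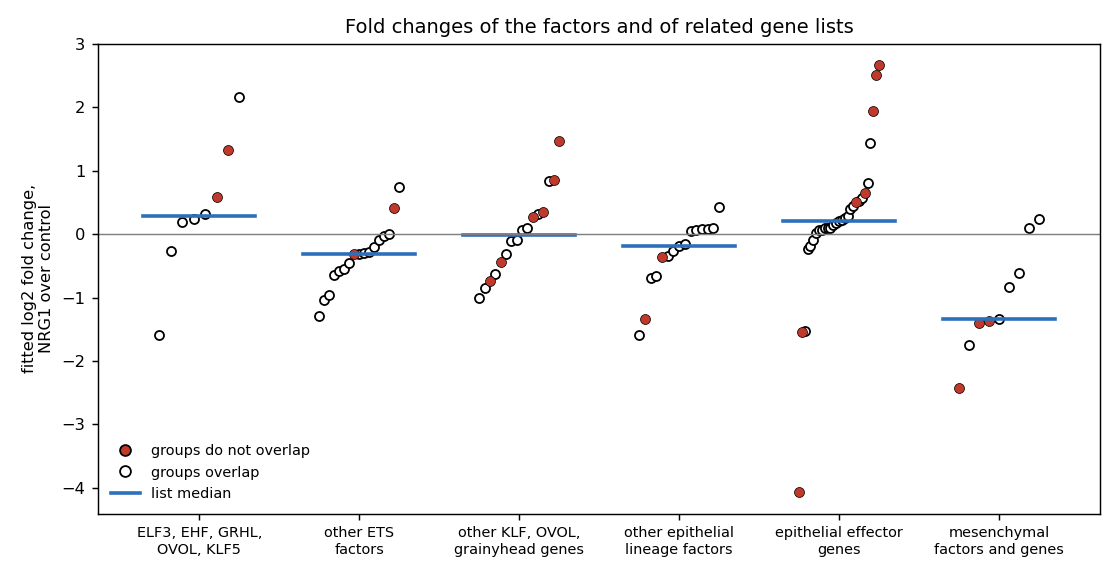
Fitted log2 fold change (NRG1 over control) of each tested gene among the factors (left) and in 5 related gene lists, with filled circles where the 3 NRG1 and 3 control libraries do not overlap and a bar at the list median. The medians run from 0.28 for the factors and 0.21 for effector genes to -1.33 for mesenchymal factors and genes.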

How the data were processed

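PolyA RNA of AALE cells was sequenced in 3 NRG1 and 3 control libraries, grouped by the sample titles. The authors deposited expected counts per Ensembl gene, not normalized, and a table named for CPM that holds log2 values of 14759 genes. These deposited log2 values equalled, within 1e-09, a TMM-scaled log2 CPM (prior 0.25) computed here on those genes, and were not used further. Per the submitters' processing notes STAR 2.5.3a, RSEM 1.3.0 and the hg19 build were named; which gene annotation was counted is not given in the sources used.

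After rounding to integers, counts went into edgeR 4.0.16 (R 4.3.3): TMM factors, low-count removal by filterByExpr, a quasi-likelihood test without covariates (Benjamini-Hochberg adjustment over 15421 genes). Levels are TMM-scaled CPM; intervals are 95% t intervals of the fit. DESeq2 1.42.0, limma 3.58.1, other scalings, filters, pseudocounts of 1 and 0.25, a replicate block and left-out libraries were alternatives; edgeR's older dispersion method was added after seeing the data. The script was tested on simulated data with 100 genes changed 2-fold and 100 changed 4-fold. There edgeR recovered 23 and 81 of these, with 6 false calls among 110. DESeq2 recovered 44 and 90, with 24 false calls among 158. Symbols came from a name table, for 51959 of 57736 identifiers.

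The members, gene lists and settings were chosen with earlier results of these data known. Named genes are the members, NRG1, up to 4 genes per list with the smallest p, and the 5 genes most correlated with ELF3 and with EHF; others are named because a count of 5 or fewer included them. Marker lists covered airway basal, secretory, ciliated, fibroblast, endothelial and leukocyte cells. A result among the other lineage factors is not reported here.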

Additional observations from a re-analysis of the deposited data

How the results depend on the processing

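Of 15421 genes edgeR called 1. The count was 209 with DESeq2 (2 members, ELF3 and EHF), 21 without a filter, 2 in limma-voom, in both limma-trend settings and with the replicate block, and 1515 without control 3 and NRG1 1 (4 members). Leaving out each library in turn gave 1 to 37 calls, and 0 to 1 members called; the 37, and ELF3 as the member, came without NRG1 1. Member calls stayed at 0 in the other settings. Over 17 settings ELF3 had a log2 fold change of 1.72 to 2.96 and EHF one of 1.09 to 1.64; GRHL2, OVOL2 and KLF5 also kept a positive sign. Without control 3 and NRG1 1 the sign turned for GRHL3 (0.69) and OVOL1 (0.054). With single libraries left out GRHL1 ran from -0.076 to 0.54 and GRHL3 from -0.63 to 0.28; the cause was not tested. Same-numbered libraries deviated from their group means with correlations of 0.020, 0.12 and -0.080 over all genes, within the -0.18 to 0.16 of other pairs. The secretory marker sum, however, was high in both libraries numbered 3, at 62.7 CPM in NRG1 3 and 31.0 CPM in control 3. It was at most 0.404 CPM in any other library. Whether the numbers mark a shared batch was not tested. Under the replicate block the log2 fold change of ELF3 was 1.90 (edgeR adjusted p = 0.327) and that of EHF 1.25 (0.42). The block lowered the SE of ELF3 (0.62 to 0.44), GRHL1 (0.40 to 0.22), GRHL3 (0.54 to 0.37) and OVOL1 (0.74 to 0.46). It raised that of EHF (0.36 to 0.40), OVOL2 (0.31 to 0.34) and KLF5 (0.181 to 0.186), and GRHL2 stayed at 0.20. Libraries of 8612234 counts or more put 1 count at about 0.1 CPM, so SPDEF and ELF5 cannot be compared.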
